A study of Dendrobium huoshanense with 6 samples.

Results

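The largest contig clusters of a transcript assembly of Dendrobium huoshanense, a medicinal orchid, were followed between cold-exposed and normally grown seedlings. A contig is one assembled transcript sequence, and contigs with the same CL number before ".Contig" in their identifier were taken as one cluster. Clusters with 30 or more contigs listed were kept, whatever their read counts, which gave 110 of 16105 clusters and 4586 of 181669 contigs (2.52%). The remaining contigs comprised 102653 without a cluster number and those of the smaller clusters.

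Each group held 3 poly(A)-selected libraries of whole seedlings, one labelled with cold stress treatments and the other with normal growth. The plants are described as annual, and the same protocol text stands for every sample: it names culture at 4 °C, 11 h of light per day and sampling at 0 and 7 days. Read as day 7 for cold and day 0 for normal growth, the groups differ in time as well as in temperature, and the 2 cannot be told apart. The number of seedlings per library, the growth temperature of the normal group and any genotype are not stated in any source used here, and the libraries of a group are called biological repeats, so p-values measure the spread between them. Estimated reads ranged from 15284397 to 17255112 per cold library and from 17683567 to 18085164 per normal growth library, and no replicate pair agreed within sampling noise over the member contigs (chi-square per degree of freedom of 22.6 to 41.4).

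In an assembly made from short reads, contigs that share long stretches of sequence are grouped, and one group can hold splice forms, alleles, fragments and the transcripts of closely related genes. Plants exposed to cold are known to change both how much of a gene's transcript accumulates and which splice forms are made. A cluster total therefore reads the summed level of related transcripts, and the contig shares read how that total is divided. The tables give no gene or product name, so clusters are named by number, no functional role is assigned, the seedling label was not checked against marker genes, and contig sequences were not used here. The deposited counts are estimates in which a read matching several contigs can be divided between them, and 47.2% to 58.5% of the values of member contigs in a library were not whole numbers. Totals do not depend on this division within a cluster, and shares do.

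The 110 clusters ranged from 30 to 302 contigs with a median of 36. Of these, 80 had 30 to 39 contigs, 27 had 40 to 99, and CL520, CL450 and CL4438 had more than 100. Member contigs were long, with a median of 2045 bases against 764 over all contigs and a range of 200 to 17662. Contigs under 500 bases made up 7.15% of them, against 39.2% of all contigs. The contig with the highest mean share was longer than the cluster's median contig in 77 of 110 clusters. Across the contigs of a cluster, length and mean TPM (a level scaled for length) had Spearman correlations from -0.56 to 0.78 with a median of 0.04. These describe contigs of the same libraries and carry no test.

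Together the clusters took 1.38%, 1.53% and 1.19% of the reads in cold replicates 1, 2 and 3, against 1.22%, 1.19% and 1.38% in normal growth replicates 1, 2 and 3. The groups overlapped, at 1.37% ± 0.169 in the cold and 1.26% ± 0.101 in normal growth (SD, n = 3 each; exact permutation test, two-sided, p = 0.5). The difference of 0.107 percentage points was 0.0242 without cold replicate 2 and 0.193 without cold replicate 3. The total of all members was thus not distinguishable between the groups, whereas single clusters differed in both directions.

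Cluster totals were compared first, as summed contig counts tested together with all other clusters and unclustered contigs (edgeR quasi-likelihood test, Benjamini-Hochberg adjustment over 35984 features). All 110 clusters had enough reads to be tested. With the adjusted p under 0.05 (edgeR), 17 clusters were higher in the cold and 25 were lower. An unadjusted p under 0.05 was found for 58 of the 110 clusters, and for 16674 of all 35984 features. The 42 called clusters are 38.2% of the members, against 34.0% of all features called. The higher clusters are 15.5% of the members against 18.5% of all features called higher, and the lower ones 22.7% against 15.5% of all features called lower. The other clusters also had more falls than rises, with 232 higher and 466 lower of 1718 tested among those of 10 to 29 contigs and 1998 higher and 2505 lower of 11272 among those of 2 to 9, so the lean was not particular to the members. The majority of falls depended on scaling and filter, since library size alone gave 19 higher and 18 lower, and a filter of 2 CPM in 3 libraries gave 20 higher and 18 lower. In 70 of the 110 clusters (63.6%) the 3 cold libraries lay on one side of the 3 normal growth libraries, against 52.6% of all features. In bulk libraries fewer cells of a type and less RNA per cell cannot be told apart.

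The sizes of change were moderate. Fold changes are cold over normal growth, and the log2 fold change of the totals ran from -2.39 to 2.19, with a median of -0.14 over the members and 0.07 over all features. Its median size without sign was 0.55 in the members and 1.09 over all features. It was 0.62 in clusters of 10 to 29 contigs, 0.88 in clusters of 2 to 9 and 1.29 in unclustered contigs, so the members lay near the next class in size. Of the members, 57 (51.8%) had a fitted change of less than 1.5-fold in either direction, against 29.3% of all features. The members were also more abundant, with a median of 65.1 CPM (estimated reads scaled to library size) against 4.64 CPM over the features tested, and the part of abundance in this difference was not tested. At least 2-fold changes were called for 9 higher and 17 lower clusters, and the share of all features at this cut is not given here. The number of calls was 24 when cold replicate 1 was left out, and 22 and 24 when normal growth replicate 1 or 3 was. The calls of 21 clusters, 7 higher and 14 lower, held in each of the 6 leave-one-out fits. Over all features the calls fell too, from 6664 higher and 5581 lower to 3603 and 3392 without normal growth replicate 1. Without cold replicate 3 they were 6944 and 5266 (edgeR).

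**Figure D1:**
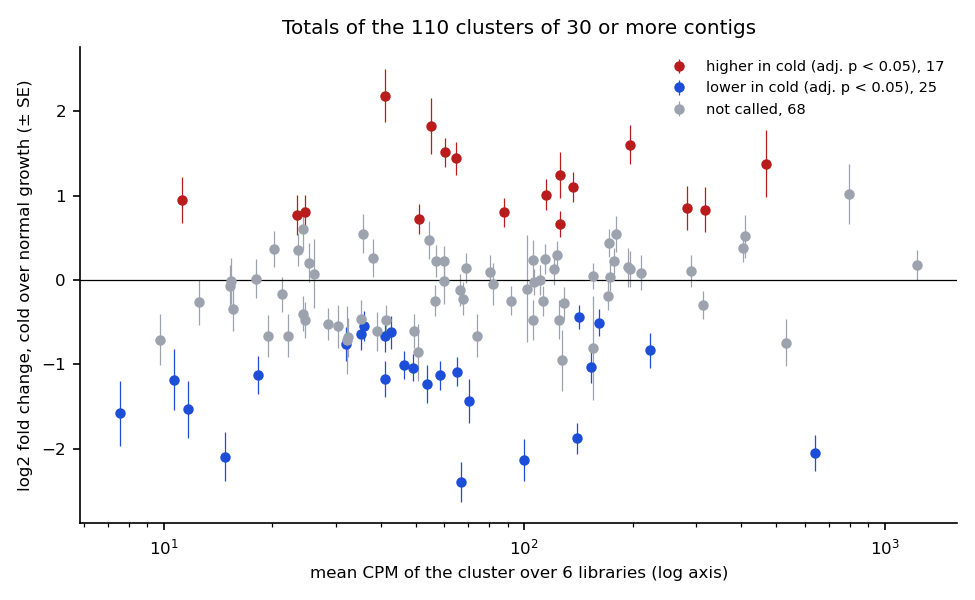
Log2 fold change of the cluster total (vertical axis, cold over normal growth, bars are SE of the edgeR fit) against mean CPM over the 6 libraries (horizontal log axis) for the 110 clusters, with 17 called higher in red, 25 called lower in blue and 68 not called in grey. Calls in both directions lie across the abundance range, and the most abundant cluster, CL520, lies near 0.

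The largest rise was that of CL14840, a cluster of 39 contigs. It had 97.5, 56.0 and 51.8 CPM in cold replicates 1, 2 and 3, against 12.7, 10.4 and 18.3 CPM in normal growth replicates 1, 2 and 3. Every cold library was above every normal growth library, and the log2 fold change was 2.19 ± 0.32 (adjusted p = 0.00457, edgeR; ± is SE). CL13956, also of 39 contigs, had 96.0, 116 and 51.0 CPM in the cold, against 16.5, 23.3 and 28.5 CPM in normal growth. Its lowest cold library was still above the highest normal growth library, at a log2 fold change of 1.83 ± 0.33 (adjusted p = 0.00835, edgeR; ± is SE). CL12769, of 40 contigs, had 241, 286 and 375 CPM in the cold, against 87.1, 99.8 and 90.5 CPM in normal growth. The normal growth libraries of this cluster lay close together and the log2 fold change was 1.60 ± 0.23 (adjusted p = 0.00437, edgeR; ± is SE).

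CL1539, of 30 long contigs with a median of 4716 bases, had 105, 90.0 and 79.1 CPM in the cold, against 32.0, 26.3 and 30.2 CPM in normal growth. The cold libraries were all more than 2-fold above normal growth (log2 fold change 1.51 ± 0.17, SE; adjusted p = 0.00217, edgeR). CL3289, of 37 contigs, had 90.2, 86.5 and 113 CPM in the cold, against 30.7, 33.6 and 35.1 CPM in normal growth. The groups did not overlap (log2 fold change 1.44 ± 0.19, SE; adjusted p = 0.00359, edgeR). These 5 calls held when any library was left out. The other 12 higher clusters had log2 fold changes from 0.66 to 1.38.

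The largest fall was that of CL897, of 42 contigs. It had 22.0, 25.1 and 21.2 CPM in cold replicates 1, 2 and 3, against 107, 82.9 and 143 CPM in normal growth replicates 1, 2 and 3. The cold libraries lay within a narrow range below all normal growth libraries, at a log2 fold change of -2.39 ± 0.23 (adjusted p = 0.00143, edgeR; ± is SE). CL1070, of 50 contigs with a median length of 4297 bases, had 35.2, 54.6 and 28.97 CPM in the cold, against 147, 179 and 155 CPM in normal growth. It was lower in every cold library (log2 fold change -2.13 ± 0.25, SE; adjusted p = 0.00254, edgeR). CL3417, of 33 contigs, was a low cluster with 6.22, 7.55 and 4.17 CPM in the cold, against 22.7, 25.7 and 22.4 CPM in normal growth. Its groups were also apart (log2 fold change -2.10 ± 0.29, SE; adjusted p = 0.00387, edgeR).

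CL250, of 30 contigs with a median length of 7430.5 bases, was the second most abundant cluster in normal growth by CPM. It had 296, 310 and 194 CPM in the cold, against 1001, 924 and 1124 CPM in normal growth. The fall left a mean level per length of 127 ± 30.7 TPM in the cold, against 501 ± 22.2 TPM in normal growth (SD, n = 3 each; log2 fold change -2.05 ± 0.21, SE; adjusted p = 0.00172, edgeR). CL15733, of 38 contigs, had 60.6, 58.6 and 71.1 CPM in the cold, against 219, 194 and 238 CPM in normal growth. Replicates of each group lay close together and the groups far apart (log2 fold change -1.88 ± 0.18, SE; adjusted p = 0.00145, edgeR). These 5 calls, too, held without any one library. The other 20 lower clusters had log2 fold changes from -1.58 to -0.44.

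**Figure D2:**
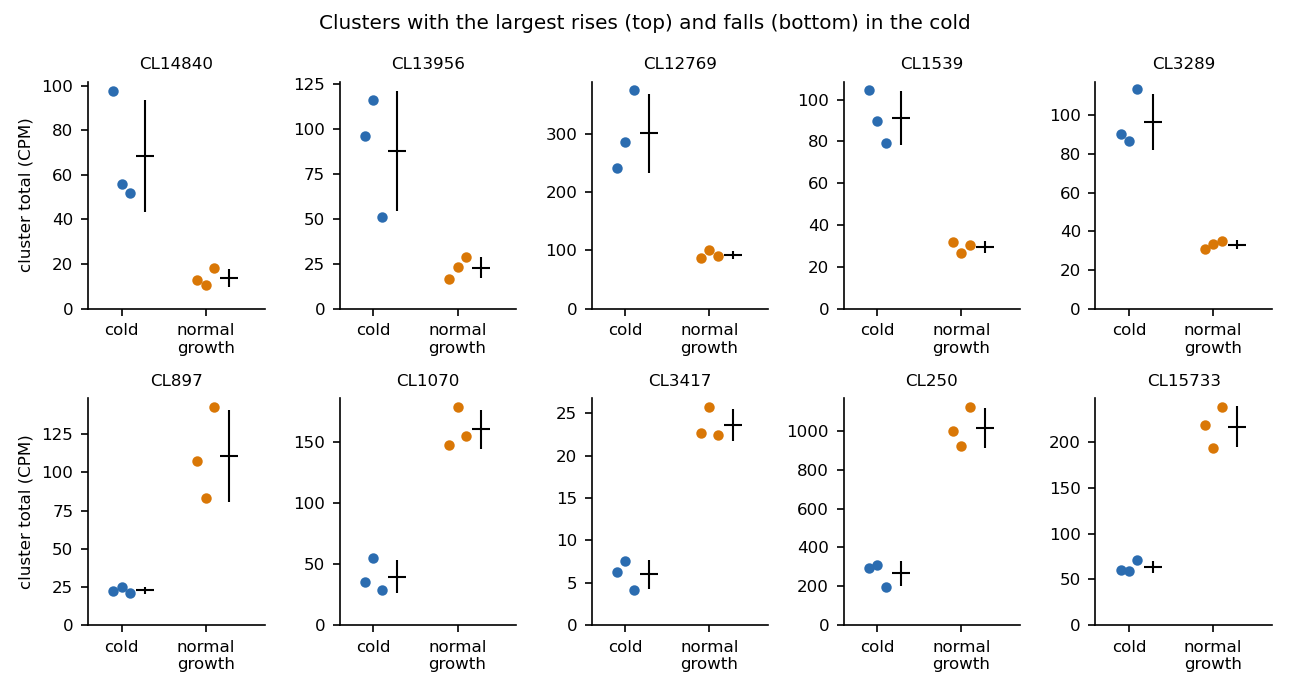
Cluster totals in CPM (vertical axes, from 0) in the 3 cold and 3 normal growth libraries for the 5 clusters with the largest rises (top row) and the 5 with the largest falls (bottom row); points are libraries and black marks are the mean ± SD. In each of the 10 clusters all cold libraries lie on one side of all normal growth libraries.

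The clusters with most contigs were not those that changed most in total. CL520, with 302 contigs, had the highest level per length of all members, 888 ± 139 TPM in the cold and 747 ± 27.2 TPM in normal growth (SD, n = 3 each). In reads it had 1205, 1448 and 1398 CPM in the cold, against 1127, 1054 and 1147 CPM in normal growth. No cold library was as low as any normal growth library, but the fitted log2 fold change of 0.18 ± 0.18 did not pass the test (SE; adjusted p = 0.467, edgeR). CL450, with 109 contigs, had 1414, 1322 and 556 CPM in the cold, against 404, 443 and 640 CPM in normal growth. Cold replicate 3 lay below normal growth replicate 3, and the log2 fold change of 1.02 ± 0.35 missed the threshold (SE; adjusted p = 0.0617, edgeR), but it passed without cold replicate 3 (adjusted p = 0.0176, edgeR) and when every feature with a read was tested (adjusted p = 0.00447, edgeR). CL4438, with 106 contigs, had 238, 195 and 109 CPM in the cold, against 64.0, 65.0 and 81.6 CPM in normal growth. Here the groups were apart (log2 fold change 1.24 ± 0.27, SE; adjusted p = 0.0146, edgeR), and the call was lost in 2 of the 6 leave-one-out fits, those without normal growth replicate 1 or 2.

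Of the next in size, CL13251 with 93 contigs had 472 ± 69.3 CPM in the cold and 334 ± 27.6 CPM in normal growth (SD, n = 3 each; adjusted p = 0.113, edgeR). CL12729 with 64 contigs had 43.8 ± 7.20 CPM in the cold and 27.8 ± 4.88 CPM in normal growth (SD, n = 3 each; adjusted p = 0.102, edgeR). Both had all cold libraries above normal growth without passing the test, although CL12729 passed it narrowly with a filter of 2 CPM in 3 libraries (adjusted p = 0.0499, edgeR). CL15171 with 60 contigs had 294 ± 47.0 CPM in the cold and 333 ± 22.4 CPM in normal growth, and its groups overlapped (SD, n = 3 each; adjusted p = 0.207, edgeR).

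Among the other abundant clusters, CL15510 of 54 contigs had 738, 991 and 353 CPM in the cold, against 175, 216 and 344 CPM in normal growth. The lowest cold library was barely above the highest normal growth library (log2 fold change 1.38 ± 0.40, SE; adjusted p = 0.0358, edgeR), and the call was lost in 4 of the 6 leave-one-out fits, those without cold replicate 1 or 2 or normal growth replicate 1 or 2. In CL15510, CL450 and CL4438 alike, cold replicate 3 was the lowest of the cold libraries and normal growth replicate 3 the highest of the normal growth libraries. The same order was seen in CL14840 and CL13956, which rose most and whose calls held when any library was left out. CL6954 of 35 contigs had 417 ± 51.2 CPM in the cold and 646 ± 240 CPM in normal growth (SD, n = 3 each; adjusted p = 0.0777, edgeR), and CL7516 of 32 contigs had 499 ± 147 CPM in the cold and 322 ± 50.3 CPM in normal growth (SD, n = 3 each; adjusted p = 0.154, edgeR). Neither passed the test with all 6 libraries, and CL6954 passed it without normal growth replicate 2 (adjusted p = 0.027, edgeR) and when every feature with a read was tested (adjusted p = 0.000428, edgeR).

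At the threshold of 30 contigs, the 11 clusters with exactly 30 had mean levels from 7.58 to 642 CPM over the 6 libraries, and the 9 clusters with 29 from 43.3 to 402 CPM. Just inside, CL14115 had 159 ± 8.73 CPM in the cold and 93.3 ± 3.97 CPM in normal growth, and CL180 had 131 ± 18.5 CPM in the cold and 111 ± 3.94 CPM in normal growth (SD, n = 3 each). Just outside, CL13530 had 228 ± 34.2 CPM in the cold and 577 ± 62.8 CPM in normal growth, CL1043 had 127 ± 27.9 CPM in the cold and 189 ± 25.3 CPM in normal growth, and CL118 had 91.05 ± 17.3 CPM in the cold and 168 ± 9.71 CPM in normal growth (SD, n = 3 each). Totals were called for 7 of the 11 clusters with 30 contigs and 4 of the 9 with 29, against 34.0% of all features. Inside, CL14115 passed the test (adjusted p = 0.0175, edgeR), a call lost on leaving out any normal growth library. Outside, CL13530, CL1043 and CL118 passed (adjusted p = 0.00276, 0.0354 and 0.00772, edgeR). A difference between the 2 sizes was not tested.

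The second comparison asked how the reads of a cluster were spread over its contigs. In the cold they lay on more contigs and more evenly. Of the 4586 member contigs, 2854, 2874 and 2818 had at least 1 estimated read in cold replicates 1, 2 and 3, against 2408, 2328 and 2508 in normal growth replicates 1, 2 and 3. Every cold library was above every normal growth library (2849 ± 28.4 in the cold and 2415 ± 90.2 in normal growth, SD, n = 3 each; two-sided exact permutation p = 0.1, below which 3 libraries against 3 cannot go), although the cold libraries held fewer reads in all. With every library thinned to the depth of the smallest, the means were 2860 ± 28.04 in the cold and 2413 ± 90.1 in normal growth (SD, n = 3 each). Thinning used rounded counts, where a value just under 1 counts as 1. These means are thus not strictly comparable with the unthinned ones. The rise was not particular to the members. On average 62.1% of member contigs had a read in the cold and 52.7% in normal growth. The shares were 73.1% and 64.2% in clusters of 10 to 29 contigs and 81.3% and 75.1% in those of 2 to 9. Unclustered contigs had 61.8% and 48.1%.

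The evenness was summarised as the effective number of contigs, the exponential of the Shannon entropy of the contig shares, which is the number of equally abundant contigs that would be equally even. Its median over the 110 clusters was 12.3, 12.4 and 11.7 in cold replicates 1, 2 and 3, against 8.88, 7.03 and 9.36 in normal growth replicates 1, 2 and 3. The groups did not overlap (exact permutation test, two-sided, p = 0.1). Over the contigs that passed the count filter alone, the group means were 7.94 in the cold and 5.98 in normal growth, against 12.1 in the cold and 8.42 in normal growth over all contigs. The most abundant contig of a cluster took a median share of 20.7% ± 0.409 in the cold and 30.4% ± 3.20 in normal growth (SD, n = 3 each; exact permutation test, two-sided, p = 0.1).

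Cluster by cluster, the effective number was higher in all 3 cold libraries than in all 3 normal growth libraries in 63 of 110 clusters (57.3%), and lower in 9 (8.18%). Over all clusters with reads in every library these shares were 23.8% and 5.75%, and in clusters of 10 to 29 contigs they were 42.0% and 5.06%. The share of such clusters thus differed with the number of contigs per cluster, and a difference between size classes was not tested. Of the 63 clusters, 12 were called higher in total, 15 lower and 36 in neither direction. With each cluster thinned to the reads of its own smallest library, 66 clusters were higher and 8 lower, so the spread was not smaller at equal reads per cluster.

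**Figure D3:**
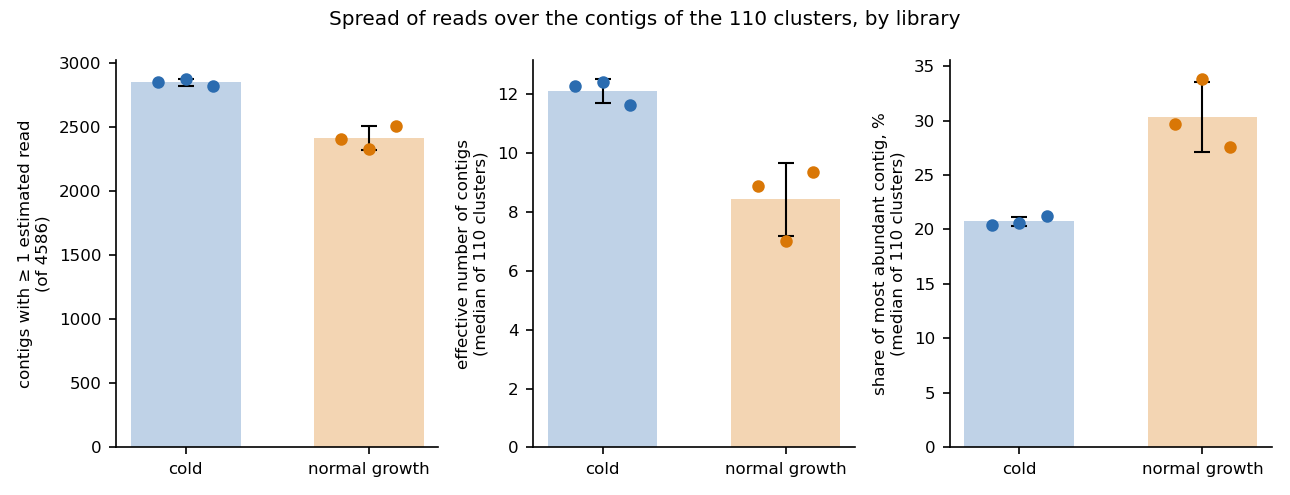
Contigs with at least 1 estimated read (left), median effective number of contigs per cluster (middle) and median share of the most abundant contig in percent (right) in cold and normal growth; points are libraries, bars are group means and error bars are SD (n = 3). The cold libraries lie above normal growth in the first and second panels and below it in the third.

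A sizeable part of the member contigs was not seen at all. No read was listed in any library for 514 of the 4586 contigs (11.2%), against 5.93% of contigs in clusters of 10 to 29 and 3.44% in clusters of 2 to 9 contigs. Reads in all 6 libraries were listed for 1369 contigs (29.9%). At least 10 reads in each cold library and 0 in every normal growth library were found for 91 member contigs (1.98%, against 0.770% of all contigs listed), spread over 45 clusters. The reverse held for 27 (0.589%, against 0.160% of all contigs listed). A listed 0 allows up to 3 reads for counting error, and is also left where shared reads were assigned to a sister contig.

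The third comparison tested whether contigs changed relative to the rest of their cluster (edgeR diffSpliceDGE, F test per cluster, Benjamini-Hochberg adjustment over 10253 clusters with at least 2 tested contigs). Contig usage changed in 70 of the 110 clusters at an adjusted p under 0.05 (edgeR). This is 63.6%, against 22.1% of all clusters tested. The test has more contigs to work with in a large cluster, with a median of 14 tested contigs per member, 8 in clusters of 10 to 29 contigs and 3 in clusters of 2 to 9. The called shares of these smaller classes were 38.7% and 18.2%. Among clusters with at least 10 tested contigs, 57 of 80 members (71.3%) and 286 of 571 other clusters (50.1%) were called, with medians of 18 tested contigs in the members and 11 in the others. The F test treats the contigs of a cluster as separate counts, whereas divided reads tie them together, and the part of this in the calls was not tested.

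Calls for usage and for total overlapped in part. Of the 110, 28 were called for both, 14 for the total alone, 42 for usage alone and 26 for neither. The 4 clusters with the smallest usage p-values were CL13015, CL450, CL13812 and CL180. In CL13015, of 49 contigs, the total was 226 ± 49.6 CPM in the cold and 197 ± 23.8 CPM in normal growth (SD, n = 3 each; adjusted p = 0.767, edgeR), while usage had an adjusted p of 3.68e-19 (edgeR). Its leading contig, CL13015.Contig18_All of 2591 bases, took 15.4%, 13.3% and 19.0% of the cluster in the cold, against 41.7%, 38.5% and 41.2% in normal growth. That contig was first in all 3 normal growth libraries and was lower in every cold library, where it stayed first on average. The effective number of contigs in CL13015 was 19.5, 15.6 and 18.7 in the cold, against 10.5, 10.4 and 11.6 in normal growth.

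CL180, of 30 contigs, likewise had a total that did not pass the test (adjusted p = 0.618, edgeR) and a usage adjusted p of 4.83e-10 (edgeR). Its first contigs were CL180.Contig10_All in the cold and CL180.Contig17_All in normal growth, 2116 and 1977 bases long. CL180.Contig10_All took 16.5% ± 3.40 in the cold and 22.8% ± 1.34 in normal growth, and CL180.Contig17_All took 14.5% ± 2.11 in the cold and 24.0% ± 1.97 in normal growth (SD, n = 3 each). Both shares were lower in every cold library, and the effective number was 14.1, 13.5 and 12.6 in the cold, against 8.96, 9.22 and 9.43 in normal growth.

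CL13812, of 31 contigs, went the other way in evenness. Its total was 168 ± 20.6 CPM in the cold and 277 ± 59.3 CPM in normal growth (SD, n = 3 each; log2 fold change -0.83 ± 0.21, SE; adjusted p = 0.0218, edgeR), a call lost without cold replicate 1, normal growth replicate 1 or normal growth replicate 3. Of its contigs 11 were called lower and 1 higher, the most lower calls of any member. CL13812.Contig4_All, of 4896 bases, took 1.97%, 3.55% and 1.59% in the cold, against 16.4%, 18.5% and 13.5% in normal growth. CL13812.Contig17_All, of 3772 bases, had 34.1, 42.7 and 32.0 CPM in the cold, against 43.8, 26.9 and 29.03 CPM in normal growth, and its share was 21.5% ± 0.985 in the cold and 12.1% ± 2.76 in normal growth (SD, n = 3 each). The effective number was lower in every cold library, at 8.16, 8.22 and 10.3 in the cold, against 14.5, 12.8 and 15.5 in normal growth.

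CL450 combined a usage adjusted p of 1.34e-11 (edgeR) with a leading contig that held its place. CL450.Contig46_All, of 17662 bases and the longest of all member contigs, was first on average in both groups, with 19.6%, 18.7% and 16.6% in the cold, against 12.5%, 12.9% and 17.2% in normal growth. The groups overlapped for this share, and the effective number was 31.7 in the cold and 31.7 in normal growth on average. In CL520 the reads were spread thinly, with effective numbers of 113, 121 and 137 in the cold, against 150, 136 and 145 in normal growth, and a usage adjusted p of 3.97e-07 (edgeR). Its longest contig, CL520.Contig122_All of 8348 bases, took 11.0%, 10.9% and 3.50% in the cold, against 1.47%, 1.95% and 2.15% in normal growth. CL520.Contig109_All, of 3321 bases, took 0.696%, 0.712% and 0.308% in the cold, against 3.29%, 4.41% and 2.94% in normal growth.

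The clusters that moved most in total differed in how the change was divided. In CL14840, which rose most, CL14840.Contig2_All of 1660 bases took 18.2%, 3.70% and 27.6% of the reads in the cold, against 71.9%, 77.4% and 77.4% in normal growth. Its own level was 17.8, 2.07 and 14.3 CPM in the cold, against 9.13, 8.08 and 14.2 CPM in normal growth, so the groups overlapped for this contig while the rest of the cluster was higher (5 contigs called higher, 0 lower; adjusted p of usage 0.000529, edgeR). Contigs with a read in CL14840 numbered 20, 23 and 23 in the cold, against 7, 9 and 9 in normal growth. In CL3289 they numbered 23, 27 and 25 in the cold, against 13, 14 and 15 in normal growth, with effective numbers of 11.9, 15.7 and 13.4 in the cold, against 3.73, 4.77 and 5.28 in normal growth. CL1539 had effective numbers of 13.8, 14.8 and 11.1 in the cold, against 7.67, 6.20 and 6.80 in normal growth. More contigs thus had a read in every cold library in CL14840 and CL3289, and effective numbers were higher there in CL3289 and CL1539.

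CL13956 and CL15510 rose without a usage call (adjusted p = 0.485 and 0.662, edgeR), and their effective numbers were lower in every cold library. In CL13956 the leading contig in both groups was CL13956.Contig17_All of 5235 bases, with 25.6%, 30.9% and 24.3% in the cold, against 13.2%, 11.1% and 15.02% in normal growth. In CL15510 effective numbers were 25.7, 26.1 and 25.9 in the cold, against 27.5, 27.8 and 28.03 in normal growth. The leading contig of CL15510 in the cold, CL15510.Contig34_All of 9784 bases, took 9.58%, 9.75% and 8.01% in the cold, against 7.02%, 7.40% and 7.40% in normal growth. CL12769 kept CL12769.Contig28_All, of 2378 bases, as its first contig on average in both groups, with shares that overlapped: 28.3%, 14.7% and 46.9% in the cold, against 29.9%, 35.3% and 18.7% in normal growth.

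Among the falling clusters, CL15733 had an uneven change. CL15733.Contig10_All, of 1713 bases, had 12.1, 12.5 and 13.8 CPM in the cold, against 192, 185 and 215 CPM in normal growth. It was lower in every cold library, at a log2 fold change of -4.03 ± 0.24 (adjusted p = 0.00395, edgeR; ± is SE), and this contig call held in each fit that left out a library. Its share of the cluster was 20.0%, 21.4% and 19.4% in the cold, against 87.8%, 95.3% and 90.3% in normal growth. The first contig in the cold was CL15733.Contig24_All, of 1700 bases, with 20.7, 13.6 and 23.1 CPM in the cold, against 17.8, 0.353 and 12.5 CPM in normal growth, which did not pass the test (adjusted p = 0.626, edgeR). Of the other contigs of CL15733, 3 were called higher, and the effective number was 8.53, 12.9 and 9.65 in the cold, against 1.69, 1.32 and 1.59 in normal growth.

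In CL250 the effective number was 9.58, 10.0 and 11.1 in the cold, against 4.70, 5.66 and 5.62 in normal growth, and 4 of its contigs were called lower and 0 higher. Its first contig on average in both groups was CL250.Contig26_All of 2846 bases, with 32.0%, 15.2% and 27.9% in the cold, against 37.0%, 33.1% and 13.1% in normal growth, values that overlapped. CL897 had effective numbers of 10.8, 11.0 and 16.4 in the cold, against 8.81, 6.16 and 8.87 in normal growth. CL3417 went the other way, with 7.39, 9.37 and 8.50 in the cold, against 10.6, 13.8 and 10.3 in normal growth. CL1070 overlapped, with 19.1, 15.4 and 15.8 in the cold, against 14.9, 12.7 and 19.8 in normal growth, and its usage did not pass the test (adjusted p = 0.233, edgeR).

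**Figure D4:**
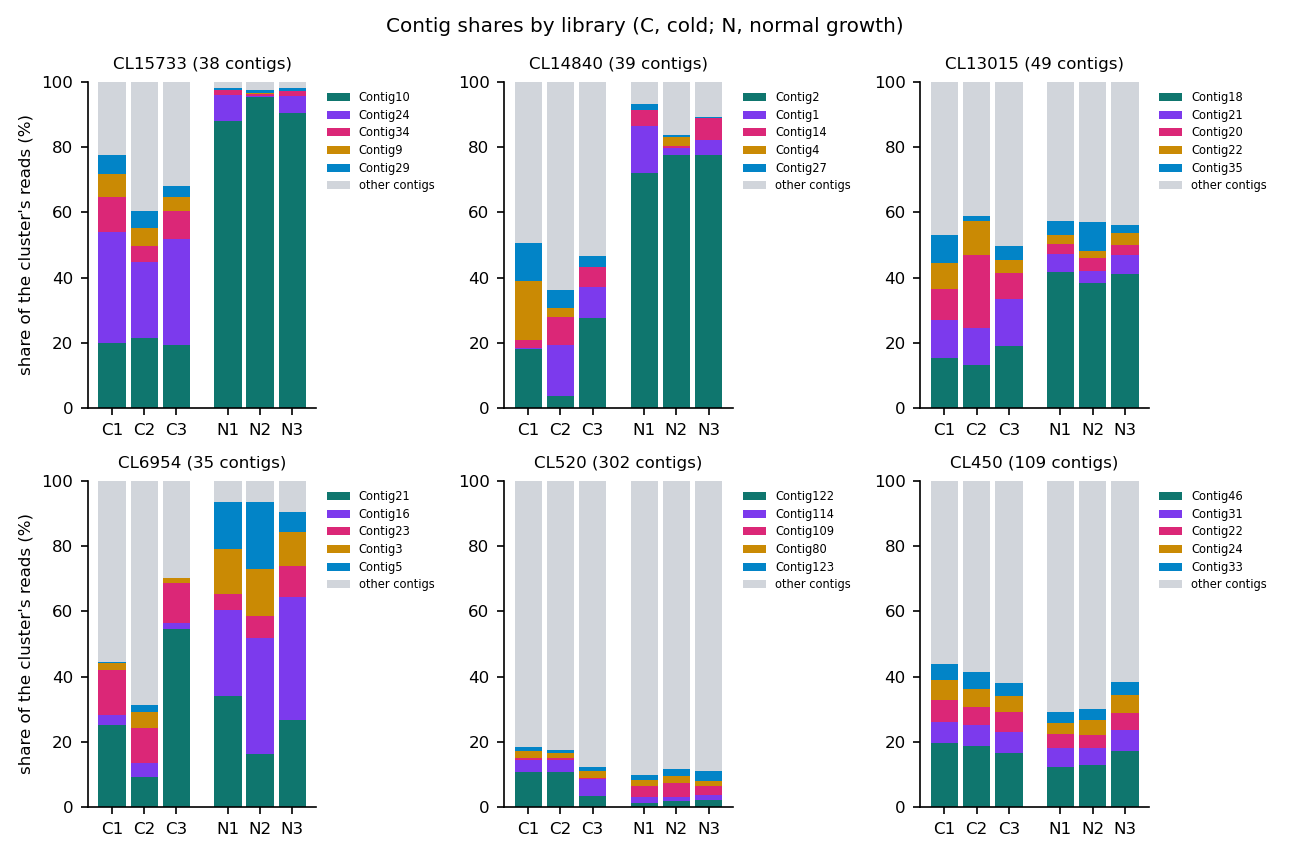
Share of the cluster's estimated reads in percent (vertical axes) taken by the 5 contigs with the highest mean share and by all other contigs (grey) in 6 clusters; C1 to C3 are cold and N1 to N3 normal growth libraries. One contig takes 87.8% to 95.3% of CL15733 and 71.9% to 77.4% of CL14840 in normal growth and 19.4% to 21.4% and 3.70% to 27.6% in the cold, while CL520 and CL450 are spread over many contigs in every library.

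The most abundant contig often differed between groups and also between replicates. A different contig had the highest mean share in the cold than in normal growth in 64 of 110 clusters (58.2%), against 52.8% of clusters of 10 to 29 contigs. This was thus not particular to the members. One contig was first in all 6 libraries in 12 clusters, and 4 clusters had a different first contig in every library. The 3 normal growth libraries shared their first contig in 47 clusters and the 3 cold libraries in 27. Counts of these kinds are not given here for smaller clusters. In 2 clusters, CL15733 and CL9235, one contig was first in all cold libraries and another in all normal growth libraries. CL9235, of 48 contigs, is named because of this count, after its values were seen. CL9235.Contig40_All, of 4383 bases, took 50.9%, 45.5% and 45.6% in the cold, against 15.1%, 6.38% and 13.8% in normal growth. CL9235.Contig10_All, of 2580 bases, took 7.47%, 16.9% and 6.18% in the cold, against 22.5%, 24.2% and 20.6% in normal growth. The reads of CL9235 were thus less even in the cold, with effective numbers of 4.44, 5.04 and 4.11 in the cold, against 13.0, 11.2 and 13.9 in normal growth.

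The contig shares of whole libraries were also compared by the Bray-Curtis distance, which is 0 for equal shares and 1 where no contig is shared. The median distance over the 110 clusters was 0.370 to 0.485 between cold libraries, 0.268 to 0.361 between normal growth libraries and 0.499 to 0.590 between libraries of different groups. In 109 clusters the mean distance between groups exceeded the mean distance within groups. Replicates of a group thus differed in their shares too, with larger distances between cold libraries. Library pairs are not independent, so no test is given.

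At the level of single contigs, 1979 of the 4586 member contigs (43.2%) had enough reads to test, many of them through one group alone. The cold libraries had 206 contigs higher and 103 lower by the same threshold (edgeR, adjusted over 70729 contigs). An unadjusted p under 0.05 was found for 651 of the 1979 member contigs, and for 24239 of all 70729 contigs. The called share was 15.6%, against 16.3% of all contigs called. The higher share was 10.4% against 9.74% of all contigs called higher, and the lower share 5.20% against 6.53% of all contigs called lower. These shares lay near those of all contigs. Called contigs were found in 95 clusters: 41 held higher contigs alone, 24 lower contigs alone and 30 both. Of the 68 clusters whose total was not called, 57 held a called contig and 19 held calls in both directions. Members had a median of 14 tested contigs each, and their called share of 15.6% was no higher than that of all contigs. These counts thus show no excess of called contigs in the members. How many smaller clusters held a called contig is not given here. The calls leaned on every library, with 6, 81 and 35 calls when cold replicate 1, 2 or 3 was left out, and 1, 46 and 9 calls when normal growth replicate 1, 2 or 3 was (edgeR). Nor did the excess of higher contigs hold: there were 0 higher and 6 lower without cold replicate 1, 44 and 37 without cold replicate 2, 15 and 20 without cold replicate 3, and 0 and 1, 22 and 24, and 3 and 6 without normal growth replicate 1, 2 or 3. Calls over all contigs fell likewise, from 6888 higher and 4617 lower to 72 and 70 without normal growth replicate 1, the fewest (edgeR). The most, 1682 and 1517, were left without cold replicate 2. The fall in calls was thus not particular to the members.

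The largest fitted changes were of contigs at 0 in one group. Of the 206 higher contigs, 98 were empty in normal growth, and of the 103 lower ones 25 were empty in the cold. Such contigs passed the count filter through the other group alone. Those named were picked for the size of their change, so their p-values add no support. The bounds allow for counting error only, not for reads assigned to a sister contig. CL15255.Contig19_All, of 4000 bases, had 101, 953 and 160 reads in the cold and 0 in normal growth. Set against a floor of 3 reads for the normal growth group as a whole, it was at least 438-fold higher (adjusted p = 0.0231, edgeR). Most of its reads came from cold replicate 2, without which the bound was 143-fold, and the call was lost in 5 of the 6 leave-one-out fits. CL12636.Contig34_All, of 2578 bases, had 406, 549 and 141 reads in the cold and 0 in normal growth, at least 396-fold higher (adjusted p = 0.0158, edgeR). This bound fell to 262-fold without normal growth replicate 2, where the floor of 3 reads stands over less depth. That drop follows from the construction of the bound. Of the 6 fits, 3 lost the call.

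In the other direction, CL1070.Contig35_All of 4260 bases had 0 reads in all cold libraries, against 475, 458 and 306 in normal growth replicates 1, 2 and 3, at least 381-fold lower than normal growth (adjusted p = 0.00948, edgeR). CL331.Contig15_All of 7920 bases also had 0 reads in the cold, against 412, 275 and 449 in normal growth, at least 349-fold lower (adjusted p = 0.0099, edgeR). Their bounds were 248-fold and 227-fold without cold replicate 3, by the same construction, and each call was lost in 1 of the 6 fits. The totals of the clusters that hold these 4 contigs changed far less: CL15255 had a log2 fold change of 0.22 ± 0.16, CL12636 of 0.15 ± 0.23, CL1070 of -2.13 ± 0.25 and CL331 of -0.47 ± 0.23 (SE, edgeR).

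**Figure D5:**
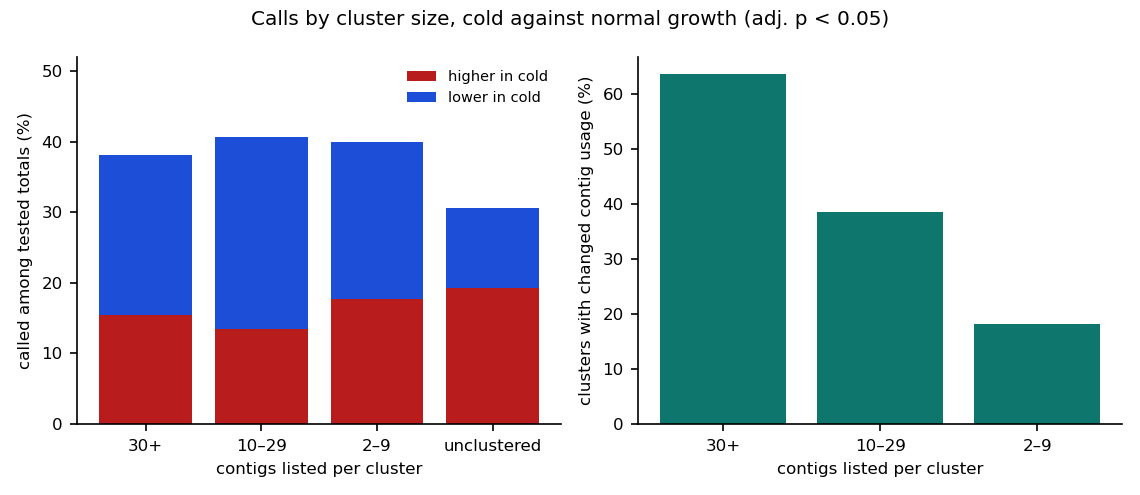
Percent of tested totals called higher (red) or lower (blue) in the cold by number of contigs listed per cluster (left), and percent of tested clusters with changed contig usage (right), both at an adjusted p under 0.05 (edgeR). Totals were called for 38.2%, 40.6%, 39.9% and 30.6% from the largest clusters to unclustered contigs, and usage for 63.6%, 38.7% and 18.2%.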

How the data were processed

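Per the file headers, each library has a table of expected counts, TPM and FPKM per contig with its length. The deposited expected counts are estimated reads per contig and need not be whole. Deposited TPM values are scaled for contig length and library, and deposited FPKM values were left unused. RSEM 1.2.8, Bowtie2 2.2.5 and DESeq2 stand in the submitters' processing notes without their roles. For the assembler and the clustering, names were not given in the sources used here, and the cluster was read from the identifier.

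Expected counts were rounded, and summed per cluster for the totals. Features were kept by filterByExpr (edgeR 4.0.16, R 4.3.3, minimum count 10, minimum total 15) and scaled by TMM. Dispersions were fitted robustly, and cold was compared with normal growth across all features by the quasi-likelihood F test. Contig usage was tested with diffSpliceDGE. An SE is the size of the log2 fold change over the square root of F. CPM, TPM sums, shares and effective numbers come from unrounded values. A 0 was set at 3 reads over the group for bounds of a fold, for counting error only. The tests were tried on simulated data with planted changes larger than that of any member total. Contigs were drawn independently there, so the trial does not bear on smaller changes or on reads divided between contigs. Alternatives used DESeq2 1.42.0 and limma 3.58.1.

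The members and lists were chosen with earlier results of these data known. Clusters were named by a rule: the 6 with most contigs, the 6 with the highest mean CPM, the 5 largest called changes per direction, the 4 smallest usage p-values, and 3 each at 30 and 29 contigs. Contigs named are the leading ones of named clusters and the 2 largest called changes per direction, at 2 CPM or more without overlap.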

Additional observations from a re-analysis of the deposited data

How the results depend on the processing

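The 42 calls of cluster totals (17 higher, 25 lower) became 22 with the replicate number as a replicate block, 27 with the DESeq2 Wald test, 20 at an adjusted p under 0.01 and 22 to 36 on leaving out 1 library; with a minimum of 20 or 40 contigs, which changes the members, they were 135 of 362 and 12 of 30. The 309 contig calls became 0 with the replicate block (edgeR; 490 at an unadjusted p under 0.05), 704 with the DESeq2 Wald test, 4 at an adjusted p under 0.01 (0 higher, 4 lower), 1 to 81 on leaving out 1 library, and 756 and 112 with 20 and 40 contigs. Usage calls stayed between 49 (replicate block) and 77 (limma diffSplice) and were 191 of 362 and 20 of 30 with 20 and 40 contigs. Different first contigs numbered 62 to 71 on leaving out 1 library and 223 and 18 with 20 and 40 contigs. The difference of 0.107 percentage points in the share of reads, cold minus normal growth, turned to -0.0673 with 20 contigs; it was 0.178 with 40 contigs, 0.0366 by TPM and 0.0242 to 0.193 on leaving out 1 library. The difference in contigs with reads, 434, was 990 and 134 with 20 and 40 contigs, and that in the median effective number, 3.69, was 1.95 over contigs kept by filterByExpr; both stayed higher in the cold in every setting run. Of the named clusters, the log2 fold change of CL13015 turned to -0.073 and that of CL180 to -0.020 when every feature with a read was tested. On leaving out 1 library, CL13015 ran from -0.085 (without cold replicate 2) to 0.23 and was also below 0 without normal growth replicate 2, and CL180 ran from -0.099 (without cold replicate 3) to 0.23. Neither was called in any setting. No other named cluster changed direction. Over clusters, the deviations of libraries with one number had correlations of -0.12, -0.01 and -0.14, and no library was closest to its own number (0 of 6). With 3 libraries per group these values cannot settle whether equal numbers mark a pairing or a batch. Library size alone raised the median log2 fold change of all features by 0.12. Over all contigs the replicate block also left 0 higher and 0 lower, and over all features 3225 higher and 3108 lower totals (edgeR). Where no construction of a setting shows the cause, the cause was not tested. Thinning per cluster and the minimum of 500 bases were chosen after seeing the data. Depth limits contigs listed at 0.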
